A study of Mus musculus with 42 samples.

Results

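The nuclear genes for the subunits of the mitochondrial respiratory chain were followed around the day in kidneys of mice fed EpSA and of mice fed chow. Members were chosen by gene symbol (the Nduf, Sdh, Uqcr, Cox4 to Cox8, Cyc1, Cycs and Atp5 families, without the Ndufaf assembly factors). They were kept where they code for protein and average 1 FPKM or more over the 14 deposited columns. FPKM is a fragment count scaled to transcript length and sequencing depth. In all 83 of the 56691 genes in the tables met this rule, and 13344 genes of any kind reached the same level and were tested. Of the 99 symbols that matched, 12 were pseudogenes or other non-coding entries and 4 protein-coding genes lay below 1 FPKM. The rule used the expression level, so the levels below are a description. It also went by symbol alone: Atp5s was counted in complex V, though its RefSeq symbol is Dmac2l. Just inside the limit lay Cox6a2 at 1.23 FPKM and Atp5g2 at 1.9 FPKM, and just outside lay Cox4i2 at 0.957 FPKM. The other 3 below it were Cox7b2 at 0.016 FPKM, Cox8c at 0.004 FPKM and a second identifier of Atp5o at 0.

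The EpSA group was wild-type male C57BL/6 mice on a high-fat diet holding 3% EpSA (epoxystearic acid, formed when frying oil is heated) for 14 weeks from the age of 6 weeks. The chow group was mice of the same strain, sex and age on a standard chow, and both lived under 12 h light and 12 h dark. Kidney sampling ran over zeitgeber times (ZT, counted in hours from lights on) 1, 5, 9, 13, 17, 21 and 25, and the labels list 42 libraries, 3 mice for each diet at each time. The deposited values are 1 mean per diet and time, here called a pool, so every error below is a spread between times and not between mice, and no test can be made at a single time. Mice on the high-fat diet alone were not analysed here, so effects of its fat and of EpSA cannot be told apart.

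The respiratory chain sits in the inner mitochondrial membrane. Complex I takes electrons from NADH and complex II from succinate, ubiquinone passes them to complex III, cytochrome c carries them to complex IV, which reduces oxygen, and the proton gradient built on the way drives complex V, the ATP synthase. Most subunits are encoded in the nucleus and imported, while a core set is encoded in mitochondrial DNA. The tubules of the kidney cortex depend on this pathway for the ATP that drives salt and solute transport.

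The pools looked like whole kidney. The proximal tubule transporter Slc34a1 was between 771 and 988 FPKM and the endocytic receptor Lrp2 between 92.2 and 129 FPKM over the 14 pools. Umod, of the thick ascending limb, was between 483 and 1021 FPKM, and the podocyte gene Nphs1 between 1.79 and 3.93 FPKM. Steps in the values of short single-exon genes placed the depth at about 11600000 to 17400000 fragments per library. Some pools stood apart in other tissues' markers: the summed FPKM of 8 adrenal markers was 112 in the EpSA ZT 9 pool and between 1.34 and 1.95 in the other 13 pools.

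Kidneys held the transcripts of all 5 complexes at high levels. The members' median was 129 FPKM, against 5.53 FPKM for all genes tested. Levels per length depend on the length used. In 295 genes whose joined exons are at least 1.5 times as long as their median transcript, 0 of 3017 values were smaller than 1 fragment in 1 mouse would give at a depth of 24000000 fragments if divided by the joined exons, and 119 were if divided by the median transcript. Atp5l, a complex V subunit with 6443 bases of joined exons and a median transcript of 544 bases, was at 5.94 FPKM. Many members also have near-identical processed copies elsewhere in the genome, so their values are uncertain to the extent that reads were shared.

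Complex I had 35 members with a median of 112 FPKM, between 12.5 FPKM for Ndufb2 and 283 FPKM for Ndufa1, an accessory subunit needed to assemble the membrane arm. Ndufa1 had 298, 275, 302, 277, 265, 259 and 269 FPKM in EpSA kidneys at ZT 1, 5, 9, 13, 17, 21 and 25, against 277, 268, 245, 259, 256, 391 and 319 FPKM in chow kidneys at the same times. The EpSA values were higher at 5 of 7 times, and the chow ZT 21 pool lay above all other pools.

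The 4 complex II genes, all nuclear, lay between 112 FPKM for Sdhc and 199 FPKM for Sdha, the flavoprotein that oxidises succinate. Sdha had 207, 201, 187, 197, 194, 192 and 203 FPKM in EpSA kidneys from ZT 1 to ZT 25 and 205, 204, 208, 193, 197, 204 and 191 FPKM in chow kidneys. It averaged 197 ± 7.02 FPKM in EpSA kidneys and 200.4 ± 6.75 FPKM in chow kidneys (SD over 7 times), and its lowest and highest pools differed by only 1.11-fold. In complex III (9 genes, median 224 FPKM) the highest was Uqcr10, a small structural subunit. Its values were 433, 400.1, 453, 401, 395, 381 and 392 FPKM in EpSA kidneys from ZT 1 to ZT 25 and 473, 476, 418, 444, 404, 501 and 471 FPKM in chow kidneys. EpSA was the lower diet at 6 of 7 times.

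Cytochrome c is encoded by Cycs, which was at 16.5, 14.3, 15.3, 14.6, 14.5, 13.2 and 14.2 FPKM in EpSA kidneys from ZT 1 to ZT 25, against 16.5, 16.3, 14.9, 16.1, 14.4, 22.5 and 17.7 FPKM in chow kidneys. In complex IV (17 genes, including Ndufa4 and its paralogue) the highest was Cox6b1, which faces the intermembrane space, at 591 ± 31.6 FPKM in EpSA kidneys and 624 ± 84.7 FPKM in chow kidneys (SD over 7 times). Cox6b1 had 596, 566, 646, 610, 595, 555 and 567 FPKM in EpSA kidneys from ZT 1 to ZT 25 and 603, 592, 586, 575, 566, 809 and 636 FPKM in chow kidneys, and was highest in the chow ZT 21 pool. Complex V had 17 genes, led by Atp5a1, the alpha subunit of the catalytic head, with 630.4, 604, 612, 613, 615, 588 and 632 FPKM in EpSA kidneys and 658, 637, 652, 619, 624, 667 and 646 FPKM in chow kidneys from ZT 1 to ZT 25. Atp5a1 varied little, and was lower in EpSA at 7 of 7 times. The beta subunit Atp5b followed at 598 FPKM. Of the 3 genes for the membrane c ring, which differ in their import sequence, Atp5g3 was at 299 FPKM, Atp5g1 at 12.8 FPKM and Atp5g2 at 1.9 FPKM.

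**Figure D1:**
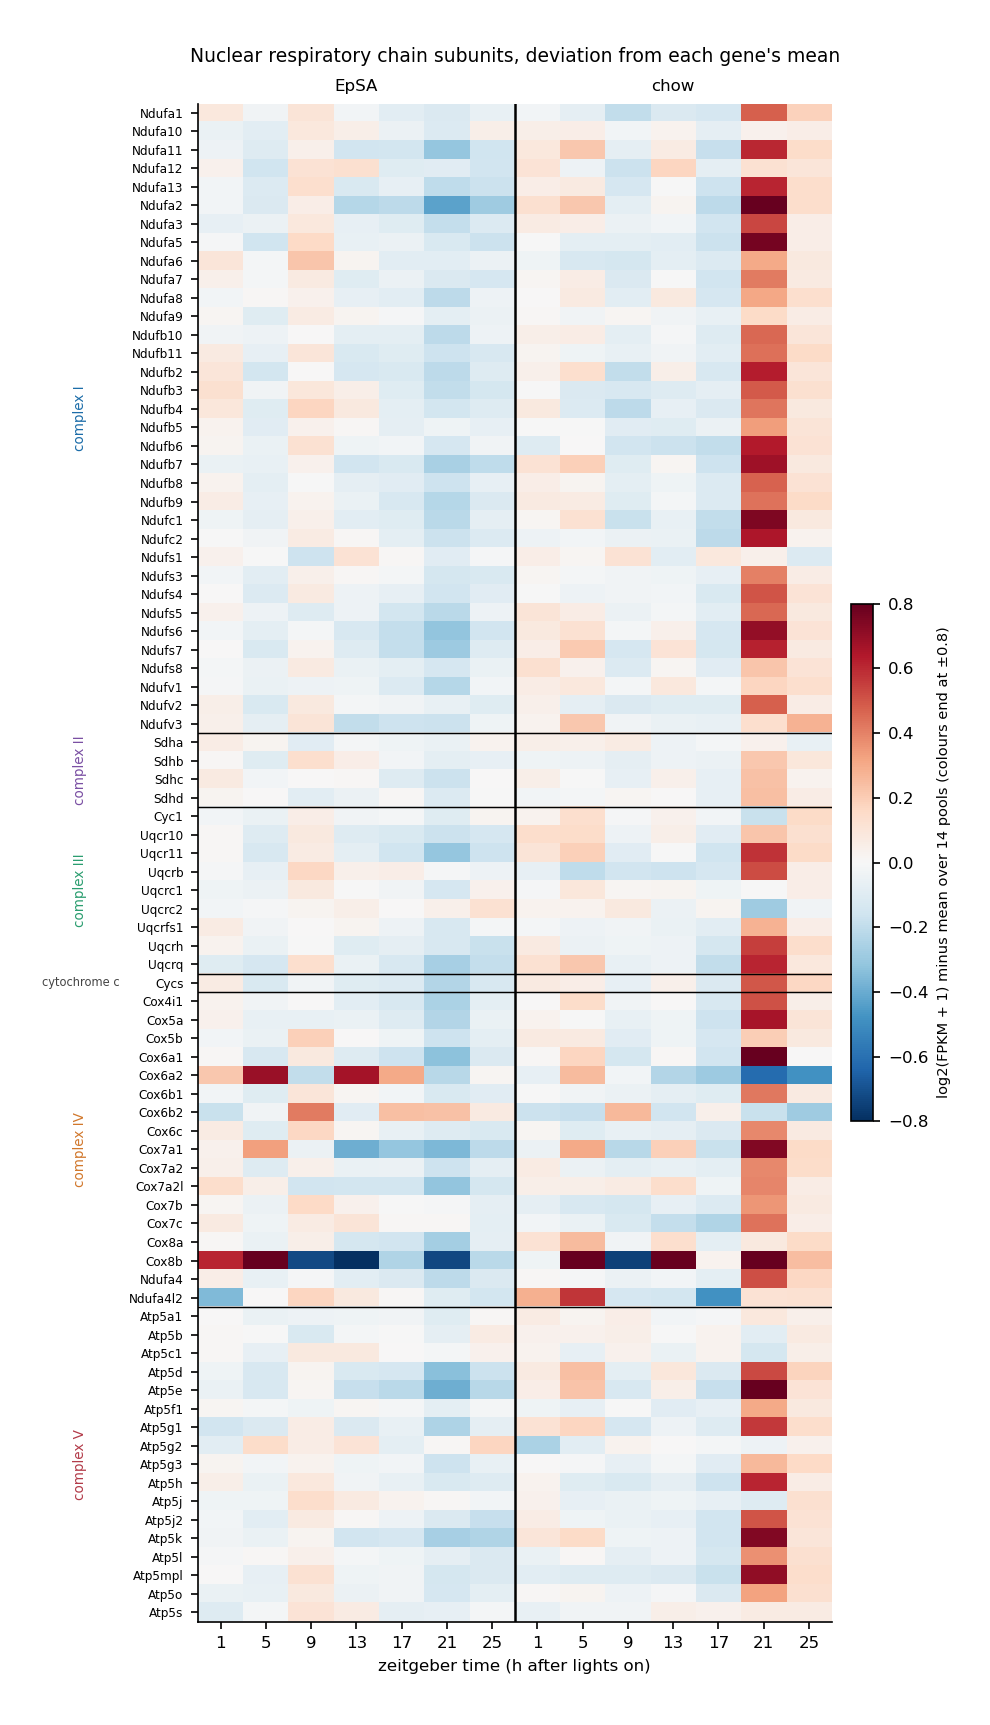
Each row is 1 of 82 of the 83 nuclear subunits, grouped by complex, and each column a pool (EpSA left, chow right, by zeitgeber time in hours); colour is log2(FPKM + 1) minus the gene's mean over 14 pools. The chow ZT 21 column is red in most rows, and 66 of all 83 members were highest there.

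The diets were first compared over the whole day, to ask whether the EpSA diet moved the respiratory chain as such. No member passed: with limma on log2(FPKM + 1), time as a factor and Benjamini-Hochberg adjustment over all 13344 genes, 0 of 83 were called, and the lowest adjusted p was 0.106, for Cox6a2. Over all genes 0.172% were called higher and 0.0749% lower in EpSA. At an unadjusted p under 0.05, 8 members were lower in EpSA, where the background was 10.6%, and 2 were higher, where it was 8.56%. The members' share of nominally lower genes, 9.64%, was thus near the background, and their share of nominally higher genes was 2.41%.

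The differences were small and mostly on the same side. The median over the members was -0.09 on the log2 scale, against -0.01 over all genes, and 73 of 83 members (88%) had a lower mean in EpSA, where 53.9% of all genes did. By complex the median was -0.11 in complex I (34 of 35 lower), -0.04 in complex II (4 of 4), -0.04 in complex III (7 of 9), -0.1 in complex IV (13 of 17) and -0.07 in complex V (14 of 17), and Cycs was at -0.18 ± 0.09 (SE). This rested largely on 1 time: without ZT 21 the members' median was -0.02 and 57 of 83 were lower. Over all genes the median was then -0.02 as well, and 7774 of 13344 were lower. With quantile normalization 48 members were lower, with a median of -0.01 for the members and 0.00 for all genes. When all genes outside the mitochondrial genome were set to the same sum, 43 were lower, but this also shifted all genes: the medians were -0.01 for the members and 0.06 for all genes. In bulk tissue fewer cells of a type and less RNA per cell cannot be told apart.

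The 8 members that were nominally lower in EpSA were spread over the chain. They were the complex I subunits Ndufv1 (-0.14 ± 0.05 SE), which binds NADH, Ndufv3 (-0.14 ± 0.06), Ndufs6 (-0.26 ± 0.11) and Ndufa11 (-0.25 ± 0.11), Uqcr10 (-0.16 ± 0.06) of complex III, Cox7a2l (-0.21 ± 0.09), which helps join complexes into supercomplexes, Cox8a (-0.18 ± 0.06) and Atp5d (-0.26 ± 0.10), the delta subunit of complex V. The nominally higher pair was Cox6a2 and Cox6b2, both isoforms of complex IV. Adjusted over all genes by limma, the 10 p-values lay between 0.106 and 0.252. Ndufv1 and Ndufs6 were lower at 7 of 7 times.

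**Figure D2:**
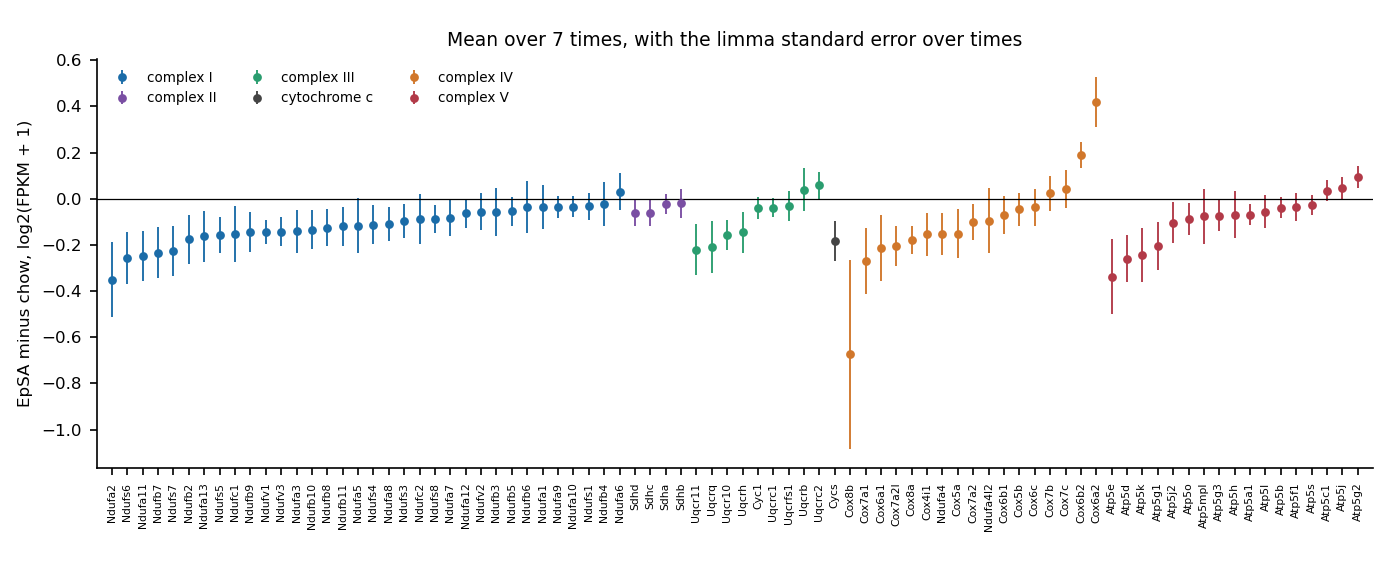
EpSA minus chow for 82 of the 83 members, as the mean over 7 times on log2(FPKM + 1); bars are limma standard errors over times, colours are complexes. Most points lie between 0 and -0.3, Cox8b is lowest with the widest bar, and Cox6a2 is highest.

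At the ends of the range, Ndufa2, an accessory subunit of complex I, had 202, 189, 213, 175, 177, 152 and 168 FPKM in EpSA kidneys from ZT 1 to ZT 25, against 224, 239, 194, 208, 177, 415 and 226 FPKM in chow kidneys. The groups overlap, and the chow value at ZT 21 is the highest of all. The mean difference was -0.35 ± 0.16 (SE; limma adjusted p = 0.281).

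Atp5e (ENSMUSG00000016252; GRCm38, chr2:174461072-174464105, minus strand), the epsilon subunit of the rotating stalk of complex V, behaved in the same way. It had 120.2, 114, 126, 109, 107, 95 and 107 FPKM in EpSA kidneys and 129, 146, 114, 129, 109.7, 261 and 134 FPKM in chow kidneys from ZT 1 to ZT 25. Its difference was -0.34 ± 0.16 (SE; limma adjusted p = 0.297), and without ZT 21 it was -0.15.

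Uqcrc2 (ENSMUSG00000030884; GRCm38, chr7:120635176-120659524, plus strand), a core protein of complex III, was among the 4 members with the highest differences, although EpSA was higher at only 3 of 7 times. It had 142, 143, 146, 148, 144, 148 and 156 FPKM in EpSA kidneys and 147, 146, 152, 139, 146, 118 and 141 FPKM in chow kidneys. Only the chow ZT 21 pool stood clear of the rest, and it was the lowest. The difference of 0.06 ± 0.06 (SE) did not pass (limma adjusted p = 0.613), and without ZT 21 it was 0.01. Atp5g2, the least abundant c ring gene, had 1.73, 2.2, 2.02, 2.12, 1.74, 1.92 and 2.26 FPKM in EpSA kidneys and 1.43, 1.73, 1.95, 1.9, 1.86, 1.82 and 1.97 FPKM in chow kidneys, higher in EpSA at 6 of 7 times but with a limma adjusted p of 0.325.

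Several complex IV subunits exist as isoforms with tissue preferences, and the kidney used the ubiquitous ones. Cox4i1 was at 494 FPKM, while its lung-type partner Cox4i2 was at 0.957 FPKM. Cox6a1 was at 516 FPKM and the heart and muscle form Cox6a2 at 1.23 FPKM. Cox8a was at 499 FPKM and Cox8b, the form of muscle and brown fat, at 30.4 FPKM.

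In the same way Cox7a2 was at 309 FPKM and Cox7a2l at 79.1 FPKM, while Cox7a1, also of muscle and brown fat, was at 23.7 FPKM. Cox6b1 was at 607 FPKM and the testis form Cox6b2 at 9.06 FPKM. Ndufa4, first assigned to complex I and now to complex IV, was at 318 FPKM and its hypoxia-induced paralogue Ndufa4l2 at 2.79 FPKM.

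Most of the ubiquitous forms were highest in the chow ZT 21 pool. Cox4i1 averaged 466 ± 30.1 FPKM in EpSA kidneys and 523 ± 83 FPKM in chow kidneys, and Cox6a1 averaged 472 ± 41.7 FPKM in EpSA kidneys and 561 ± 161 FPKM in chow kidneys (SD over 7 times). In the chow ZT 21 pool Cox6a1 reached 914 FPKM, against 403 FPKM in the EpSA ZT 21 pool. Cox8a differed from these: it averaged 468 ± 34.8 FPKM in EpSA kidneys and 530.4 ± 40.7 FPKM in chow kidneys, and its chow ZT 21 value of 524 FPKM lay within the range of the other chow pools. Cox7a2 averaged 297 ± 15.3 FPKM in EpSA kidneys and 320 ± 40.6 FPKM in chow kidneys, Cox7a2l 73.4 ± 7.87 FPKM in EpSA kidneys and 84.7 ± 8.69 FPKM in chow kidneys and Ndufa4 299 ± 17.6 FPKM in EpSA kidneys and 336 ± 53.9 FPKM in chow kidneys.

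Cox6a2 (ENSMUSG00000030785; GRCm38, chr7:128205435-128206387, minus strand) had the lowest p of the diet test. It had 1.5, 2.48, 0.88, 2.42, 1.66, 0.85 and 1.18 FPKM in EpSA kidneys from ZT 1 to ZT 25, against 1.06, 1.57, 1.12, 0.83, 0.76, 0.41 and 0.54 FPKM in chow kidneys. EpSA was higher at 6 of 7 times, and the ranges overlap. The difference was 0.42 ± 0.11 (SE; limma adjusted p = 0.106), and at the lowest depth the mean level stands for about 10 fragments per library. The striated muscle genes Ckm, Myh7, Myh1 and Myh4, whose tissue uses this isoform, were at or near 0, at most 0.04 FPKM in any pool. All 12 striated and smooth muscle markers together summed to 19.4 to 31.8 FPKM in EpSA kidneys and 16.9 to 26.8 FPKM in chow kidneys, 3 of the 12 were tested, and all 3 had a higher mean in EpSA; their part in the Cox6a2 difference was not tested.

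Cox6b2 was likewise higher in EpSA at 6 of 7 times, with 7.8, 8.76, 12.3, 8.36, 10.8, 10.7 and 9.46 FPKM in EpSA kidneys and 7.85, 7.76, 10.9, 7.95, 9.23, 7.81 and 7.18 FPKM in chow kidneys. Its difference was 0.19 ± 0.06 (SE; limma adjusted p = 0.131). Both diets were high at ZT 9, the 2 highest values of the gene.

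Cox8b (ENSMUSG00000025488; GRCm38, chr7:140898945-140900446, minus strand) was the most variable member. It had 39.7, 56.1, 15.2, 4.97, 21.5, 15.1 and 22 FPKM in EpSA kidneys from ZT 1 to ZT 25, against 25.1, 45.6, 14.9, 46.2, 26.2, 61.8 and 30.7 FPKM in chow kidneys. Highest and lowest pools differed by 12.4-fold, with no time order common to the diets, and the difference of -0.67 ± 0.41 (SE) did not pass (limma adjusted p = 0.406). Without ZT 13 it was -0.29.

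Cox7a1 shared part of this pattern. It had 23.7, 29.3, 22.3, 17.4, 18.5, 17.8 and 19.9 FPKM in EpSA kidneys and 22.4, 28.7, 19.7, 26.4, 20.3, 39.3 and 25.8 FPKM in chow kidneys, with a difference of -0.27 ± 0.14 (SE; limma adjusted p = 0.333). Markers of fat varied across the same pools. Ucp1, the uncoupling protein of brown fat, had 45, 89.96, 6.56, 3.88, 8.01, 9.8 and 15.4 FPKM in EpSA kidneys and 27.9, 77.5, 13.9, 23.5, 25.1, 13.5 and 40.7 FPKM in chow kidneys.

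The summed FPKM of the 10 fat markers was between 63.1 and 339 in EpSA kidneys and between 127 and 280 in chow kidneys, and 6 of 8 tested were lower in EpSA over the day. Their sum was lowest in the EpSA ZT 13 pool, at 63.1, where Cox8b was also lowest. In the chow ZT 21 pool, where Cox8b and Cox7a1 were highest, the sum was 175 and Ucp1 was at 13.5 FPKM. The part of fat tissue in the values of Cox8b and Cox7a1 was not tested.

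**Figure D3:**
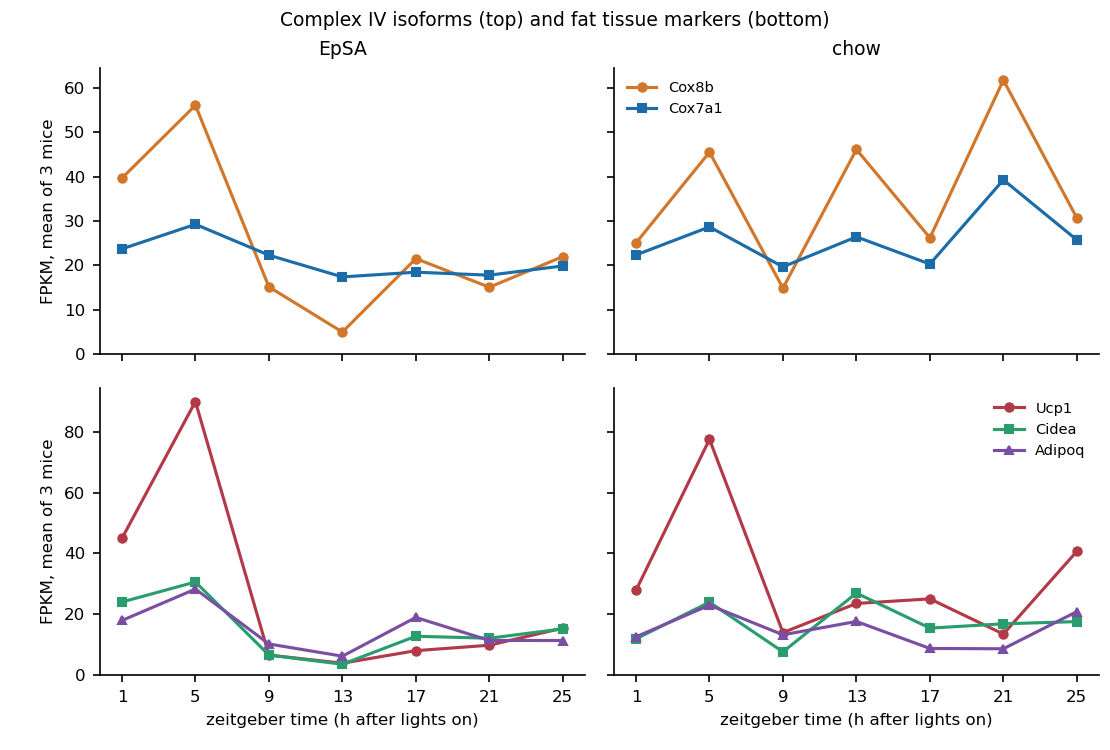
FPKM by zeitgeber time (hours) of Cox8b and Cox7a1 (top) and of the fat markers Ucp1, Cidea and Adipoq (bottom), in EpSA (left) and chow (right); each point is the authors' mean of 3 mice. Cox8b and Ucp1 share a high value at ZT 5 in both diets. In chow Cox8b is as high at ZT 13 (46.2 FPKM) as at ZT 5 (45.6 FPKM), while Ucp1 is lower at ZT 13 than at ZT 5. The Cox8b maximum in chow is 61.8 FPKM at ZT 21, where Ucp1 is at 13.5 FPKM.

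Taken time by time, the diets differed mostly at ZT 21, late in the dark phase. From ZT 1 to ZT 25 the members' median of EpSA minus chow was -0.01, -0.06, 0.12, -0.02, 0.03, -0.54 and -0.17 on the log2 scale. For all genes it was between -0.05 and 0.07 at each of these times. At ZT 21, 75 of 83 members were lower in EpSA, against 5380 of all 13344 genes. Of the members 46 (55.4%) were lower by at least 0.5 on the log2 scale, against a background of 6.41%. At ZT 9, 14 members were lower, against 7519 of all 13344 genes. The part of the adrenal markers in the EpSA ZT 9 pool was not tested. There is 1 value per diet and time, so these are descriptions of 2 pools.

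Both pools contributed to the ZT 21 difference, the chow one more. The EpSA ZT 21 pool was the lowest of 14 for 46 members (55.4%; background 11.3%), and the chow ZT 21 pool was the highest for 66 members (79.5%; background 13.5%). The members' median deviation from their own means was -0.15 in the EpSA ZT 21 pool and 0.42 in the chow ZT 21 pool. Over the other 12 pools it lay between -0.11 and 0.09. Together the members took 2.85% of all FPKM in the EpSA ZT 21 pool and 3.98% in the chow ZT 21 pool, and between 3% and 3.38% elsewhere.

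All complexes took part, to different extents. The ZT 21 median was -0.64 in complex I (35 of 35 lower), -0.32 in complex II (4 of 4), -0.41 in complex III (7 of 9), -0.54 in complex IV (15 of 17) and -0.43 in complex V (13 of 17), and Cycs was at -0.73.

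The 3 largest differences at ZT 21 were those of Cox8b (-1.97), Atp5e (-1.45) and Ndufa2 (-1.44). Cox8b was at 15.1 FPKM in the EpSA ZT 21 pool and 61.8 FPKM in the chow ZT 21 pool. Atp5e was at 95 FPKM in EpSA and 261 FPKM in chow, and Ndufa2 at 152 FPKM in EpSA and 415 FPKM in chow. In all, 7 members were lower in EpSA by at least 1.

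The 8 members that were not lower in EpSA at ZT 21 were Cyc1, Uqcrc2, Cox6a2, Cox6b2, Atp5b, Atp5c1, Atp5g2 and Atp5j. Some of them encode large central parts of their complex, but so do Atp5a1 (-0.18) and Uqcrc1 (-0.13), which were lower at ZT 21. Cyc1, the cytochrome c1 of complex III, was at 117 FPKM in EpSA and 110.4 FPKM in chow. Atp5b was at 568 FPKM in EpSA and 564 FPKM in chow, and Atp5c1, the gamma subunit that turns in the catalytic head, at 251 FPKM in EpSA and 229.7 FPKM in chow. Subunits of the same complex differed in opposite directions in these pools, since Atp5d was at 119 FPKM in EpSA and 217 FPKM in chow.

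**Figure D4:**
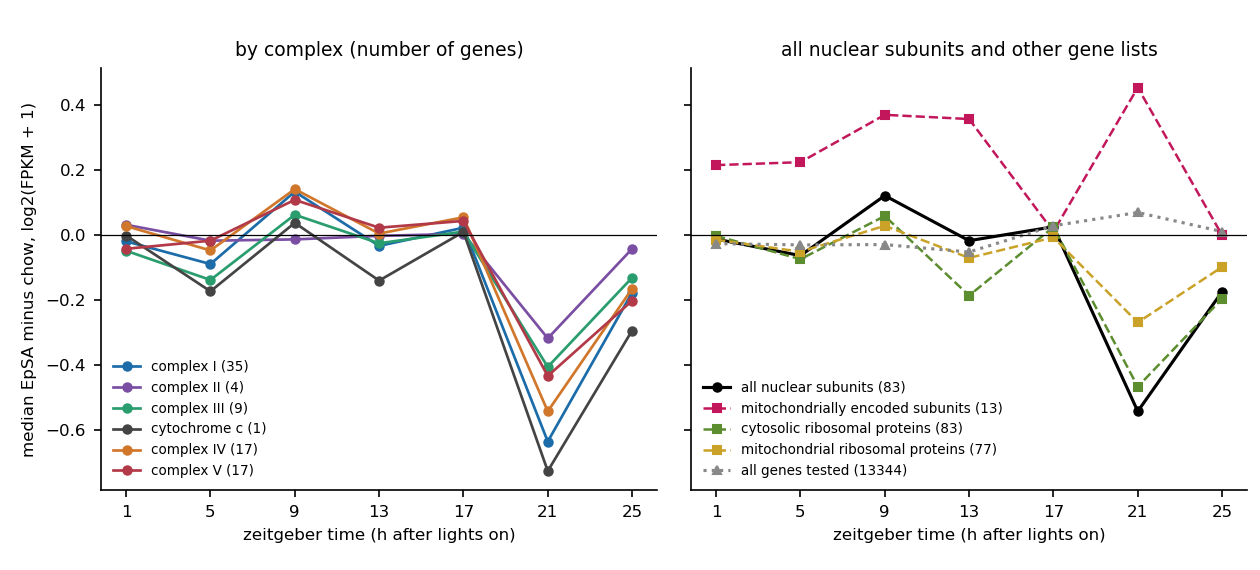
Median EpSA minus chow on log2(FPKM + 1) at each zeitgeber time (hours), for each complex (left) and for all 83 nuclear subunits, other gene lists and all genes tested (right); numbers of genes are in the legends. All complexes dip at ZT 21, where the 13 mitochondrially encoded subunits are at 0.45.

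As a set, the subunits encoded in mitochondrial DNA did not share the nuclear pattern at ZT 21. All 13 of 13 had a higher mean in EpSA, with a median of 0.22, though none was called (limma, Benjamini-Hochberg over all genes), and at ZT 21 their median was 0.45. The largest was mt-Nd5, a proton-pumping subunit of complex I, at 0.43 ± 0.09 (SE; limma adjusted p = 0.073), followed by mt-Atp8, of complex V, at 0.38 ± 0.11 (SE). The smallest were mt-Co2 at 0.07 ± 0.08 and mt-Nd3 at 0.14 ± 0.07 (SE). The exceptions at ZT 21 were mt-Co2 (-0.08), mt-Nd3 (-0.05) and mt-Nd6 (-0.01), which were slightly lower in EpSA. Of these, mt-Co2 (433 FPKM) and mt-Nd3 (66.4 FPKM) had their highest value in the chow ZT 21 pool, as most nuclear members did. At ZT 9 both sets were higher in EpSA, with medians of 0.37 for the mitochondrially encoded and 0.12 for the nuclear subunits.

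RNA from the mitochondrial genome made up 32.7% of all FPKM in the EpSA ZT 21 pool and 22.2% in the chow ZT 21 pool. FPKM is relative to the total, so this share can move the values of all other genes. The sum of the other genes also holds single large differences, such as that of Kap (values below), and the parts were not told apart. When the other genes were set to the same sum, the members' ZT 21 median was -0.25, against 0.30 for all genes, 65 of 83 members were lower in EpSA and 53 were highest in the chow ZT 21 pool.

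Genes that serve the chain were read from lists, with no member of any of them called in the diet or rhythm tests. Of 17 complex I assembly factors 12 were lower in EpSA (median -0.04, and -0.15 at ZT 21), and of 30 tested assembly factors of complexes II to V 23 were (median -0.07, and -0.22 at ZT 21). Of 77 mitochondrial ribosomal proteins 60 were lower (median -0.07, and -0.27 at ZT 21). The cytosolic ribosomal proteins, which have no part in respiration, gave 74 of 83 lower, a median of -0.11 and -0.47 at ZT 21. The 16 citrate cycle enzymes were at -0.03 and -0.06 at ZT 21, with 11 lower.

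The regulators of the chain's genes were even. Of 17, 11 were higher and 6 lower in EpSA, with a median of 0.02 and of 0.00 at ZT 21. The highest were Mterf3, a brake on mitochondrial transcription, at 0.14 ± 0.04 (SE; limma adjusted p = 0.149), and Gabpb1, a subunit of the nuclear respiratory factor GABP, at 0.09 ± 0.05. The lowest were the orphan receptor gene Esrrb at -0.20 ± 0.07 and Tfam, which packages mitochondrial DNA, at -0.08 ± 0.05. Ppargc1a, the coactivator PGC-1alpha, had 10.8, 11, 10.7, 11, 10.7, 11.4 and 11.3 FPKM in EpSA kidneys and 11.4, 10.4, 12, 10.6, 11.2, 12.5 and 7.96 FPKM in chow kidneys.

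The ZT 21 difference ran with the length of the transcript. The members' annotated mRNAs had a median of 745 bases, against 2621 for all genes tested. Across the 83 members Spearman's rho between length and the ZT 21 difference was 0.43, and across 11340 tested genes with a length it was also 0.43; genes of 1 pool share library and scaling and are not independent. Members of up to 1000 bases (55 genes) had a median of -0.66, those above 1000 (28 genes) one of -0.35 and those above 1500 (17 genes) one of -0.18.

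Up to 2000 bases other genes of the same length also had medians below 0, nearer to 0 than the members. Between 500 and 750 bases the median was -0.62 for 29 members and -0.34 for 329 other genes. From 750 to 1000 bases it was -0.59 for 12 members and -0.22 for 543 others, and from 1000 to 1500 bases -0.41 for 11 members and -0.13 for 1304 others. Above 2000 bases other genes were on the other side of 0: from 2000 to 3000 bases the median was -0.16 for 6 members and 0.08 for 2826 others, and from 3000 to 5000 bases Cycs, the only member, was at -0.73 and 3129 others at 0.14.

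At ZT 25 rho was 0.44 over the members and 0.4 over all genes, and at ZT 9, where the members were higher in EpSA, it was -0.31 over the members and -0.27 over all genes. RNA quality values were not analysed here, and the part of length in the difference was not tested.

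**Figure D5:**
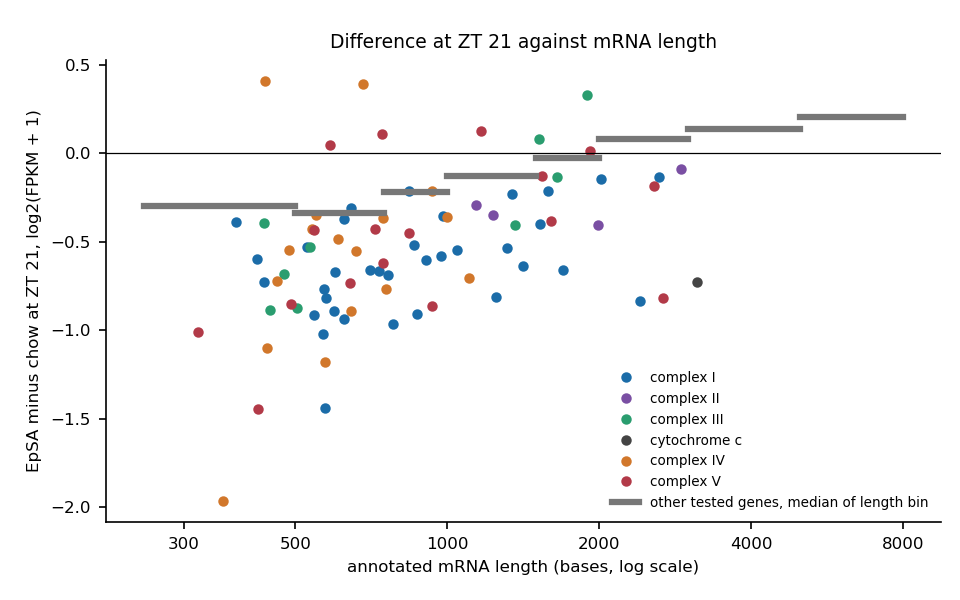
EpSA minus chow at ZT 21 on log2(FPKM + 1) against annotated mRNA length in bases (log scale); points are the 83 members, coloured by complex, and grey bars are medians of the other tested genes in bins of length, the outermost cut at the plot's edges. Grey bars climb with length, and most members lie below the bar of their bin.

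Cell markers also differed between the ZT 21 pools. The 12 proximal tubule markers summed to 31400 FPKM in the EpSA ZT 21 pool and 65220 FPKM in the chow ZT 21 pool, nearly all of it Kap, an androgen-regulated transcript of this segment, at 29286 FPKM in EpSA and 62960 FPKM in chow. Their median difference was 0.06. The podocyte markers summed to 90.1 FPKM in EpSA and 58.2 FPKM in chow, with a median difference of 0.43, and the endothelial markers to 101 FPKM in EpSA and 77.5 FPKM in chow, with one of 0.41. The 8 thick ascending limb markers summed to 926 FPKM in EpSA and 1234 FPKM in chow, with a median difference of -0.27 at ZT 21 and of -0.20 over the day, when 7 of 8 were lower in EpSA. The red blood cell markers summed to 327 FPKM in EpSA and 606 FPKM in chow, with a median difference of -0.63. The part of cell makeup in the ZT 21 difference was not tested.

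ZT 1 and ZT 25 are the same hour a day apart. The members' median of ZT 25 minus ZT 1 was -0.10 in EpSA kidneys, with 70 of 83 lower at ZT 25, and 0.06 in chow kidneys, with 66 higher. Over all 13344 genes tested it was -0.005 in EpSA kidneys, with 6787 lower, and -0.043 in chow kidneys, with 5224 higher. In pools of the same hour the members thus differed in opposite directions in the diets, by amounts of the size of their median diet differences outside ZT 21.

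Rhythm was then examined, since the series sampled the kidney around the day. A 24 h cosine fitted with limma called 0 members in EpSA (0.045% of all genes) and 0 in chow (0.0974%), and the test of a difference of rhythm called 0 (0.0% of all genes). The lowest adjusted p among members was 0.543 in EpSA, 0.34 in chow and 0.823 for the difference. At an unadjusted p under 0.05 there were 2 members in EpSA (2.41%, background 8.63%) and 3 in chow (3.61%, background 10.2%). For the difference there were 6 (7.23%, background 4.38%). That last count ranged from 1 to 48 when 1 time was left out, and the members share each pool, so it is not read as a trait of the members. The members' median amplitude was 0.08 in EpSA and 0.16 in chow on the log2 scale, against 0.09 in both for all genes. It was thus near that of all genes in EpSA and above it in chow.

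The chow fits depended on single pools. The members' median deviation was lowest of the chow pools at ZT 17, at -0.11, and highest at the next time, ZT 21, at 0.42. Without ZT 17, 25 members had an unadjusted p under 0.05 in chow and 48 for the difference of rhythm. After adjustment there were 0 in both, as there were over all genes. The share of all genes at an unadjusted p under 0.05 without ZT 17 is not given here, so these counts have no background. For Ndufa1 the fitted chow peak was at 21.9 h.

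Ndufa4l2 had the lowest p in chow and for the difference. It had 1.92, 2.74, 3.2, 2.94, 2.75, 2.48 and 2.37 FPKM in EpSA kidneys from ZT 1 to ZT 25, against 3.55, 4.55, 2.4, 2.37, 1.66, 3.04 and 3.06 FPKM in chow kidneys. The fitted peak was at 11.4 h in EpSA (amplitude 0.19; limma adjusted p = 0.545) and at 3.52 h in chow (amplitude 0.38; limma adjusted p = 0.34). The difference of rhythm had a limma adjusted p of 0.823.

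Other members with low unadjusted p-values peaked at other hours. In EpSA, Cox7a1 peaked at 5.26 h with an amplitude of 0.3 (limma adjusted p = 0.543), and Uqcrq, a ubiquinone-binding subunit of complex III, at 9.45 h with 0.14 (limma adjusted p = 0.583). Uqcrq had 108, 106, 128, 112, 106, 96.5 and 101 FPKM in EpSA kidneys and 126, 135, 112, 113, 101, 177 and 123 FPKM in chow kidneys, and its EpSA maximum was at ZT 9. In chow, Cox6a2 peaked at 7.39 h with 0.33 (limma adjusted p = 0.478).

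Ndufb4, an accessory complex I subunit, had 24.8, 21.6, 26.2, 24.5, 21.9, 20.8 and 21.5 FPKM in EpSA kidneys and 24.5, 21.4, 19.9, 22.1, 21.2, 31.5 and 24.5 FPKM in chow kidneys. Its fitted peak was at 9.43 h in EpSA and 21.5 h in chow (limma adjusted p = 0.823 for the difference). Cox5b, which binds zinc in complex IV, had 149, 146, 174, 152, 148, 135 and 144 FPKM in EpSA kidneys and 159.7, 159.5, 142, 148, 138, 174 and 160.4 FPKM in chow kidneys, with peaks at 9.33 h in EpSA and 0.136 h in chow (limma adjusted p = 0.823 for the difference). In both genes the EpSA maximum was at ZT 9 and the chow maximum at ZT 21.

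Rhythm statistics came with the data as well. By the authors' deposited table, a total of 3 members had a meta2d p under 0.05 in EpSA (background 9.82%), namely Ndufa3, Ndufa4l2 and Atp5s, and 1 in chow (background 11.8%), namely Ndufv3; Ndufa3, Atp5s and Ndufv3 were named after their values were seen. No member had a q-value under 0.05 in the authors' deposited table, where the lowest was 0.529 in EpSA and 0.781 in chow. The median ratio of amplitude to baseline in the authors' deposited table was 0.041 in EpSA and 0.084 in chow over the members. Over all genes tested it was 0.07 in EpSA and 0.068 in chow.

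Promoters of the members were read for short motifs, since many of them stood apart in the same pools. The RefSeq promoter table (GRCm38.p6) held a window for 68 of the 83 members, and the 250 bases before the start were searched on both strands. The motif of NRF1, a nuclear respiratory factor (GCGCATGCG, which overlaps its own reverse complement), was in 7 members, or 10.3%, against 3.44% of 9149 tested genes with a window and 1.64% of all 27025 genes. The ETS motif bound by GABP (CCGGAAG) was in 17.6% of members against 15.9% of tested genes and 7.83% of all genes, and the ERR motif (AAGGTCA) in 7.35% against 3.67% and 4.7%. The YY1 motif (AAGATGGCG) was in 1.47%, against 1.42% and 0.71%. The clock motifs were no more common than elsewhere among tested genes for the E-box (CACGTG), in 8.82% against 10.1% and 6.86%, and the D-box (TTATGTAA) was in 1 member, 1.47% against 0.57% and 0.977%.

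The stretches around the NRF1 match are shown for all 7 members that hold it, because it is the motif whose share stood furthest from that of the tested genes. They are given 5′ to 3′ on the strand of the gene, with the match in capitals and up to 15 bases on each side, ending at the start site at the latest.
Ndufa11, chr17:56717687-56717726, plus strand: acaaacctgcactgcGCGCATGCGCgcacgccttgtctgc
Ndufa8, chr2:36049339-36049362, minus strand: gcgcgtcgctggagaCGCATGCGC
Cycs, chr6:50566607-50566645, minus strand: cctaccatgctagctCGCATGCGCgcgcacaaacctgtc
Cox6a1, chr5:115349096-115349135, minus strand: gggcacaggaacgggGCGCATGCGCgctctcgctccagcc
Atp5g2, chr15:102671065-102671104, minus strand: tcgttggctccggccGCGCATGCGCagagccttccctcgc
Atp5k, chr5:108434425-108434464, minus strand: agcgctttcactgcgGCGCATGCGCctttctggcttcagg
Atp5l, chr9:44920960-44920992, minus strand: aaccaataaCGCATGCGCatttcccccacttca
The match begins 60 bases before the start in Ndufa11, 9 in Ndufa8, 61 in Cycs, 162 in Cox6a1, 42 in Atp5g2, 50 in Atp5k and 241 in Atp5l. In Ndufa11, Cox6a1, Atp5g2 and Atp5k the capitals run to 10 bases, since the motif matches on both strands with a shift of 1 base.

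The 7 members with the motif had a median diet difference of -0.18 (6 of 7 lower in EpSA) and a median of -0.73 at ZT 21. The 61 with a window and no such motif had -0.09 (55 of 61 lower) and -0.55 at ZT 21. Of the 7, all but Cycs have annotated mRNAs of up to 1000 bases, and members of that length had a median of -0.66 at ZT 21. The part of length in this comparison was not tested. The ranges at ZT 21 overlap, from -1.18 to 0.05 with the motif and from -1.97 to 0.41 without. Atp5g2 holds the same 10 bases as Cox6a1 but was at 0.05 at ZT 21, where Cox6a1 was at -1.18.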

How the data were processed

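Per the labels' protocols, total kidney RNA gave paired reads, each 150 bases long. Aligner, counter, build and annotation are not given in the sources used here. For each diet 1 table of 56691 genes was deposited. The deposited values are taken as FPKM, a unit absent from the headers, because in single-exon genes of up to 400 bases the lowest values times length fall on steps of whole fragments. Their last decimals are those of means of 3 values. The deposited p-values and q-values, phases and relative amplitudes are of meta2d, per the file headers.

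Each of the 14 means was taken as 1 sample. All genes averaging 1 FPKM or more entered limma tests on log2(FPKM + 1), a scale that understates changes of low genes, run in limma 3.58.1 (trend and robust) and R 4.3.3. Time entered the diet model as a factor; rhythm was a 24 h cosine and sine. Adjustment was by Benjamini-Hochberg at 0.05 over 13344 genes. The model was tested on simulated data. The p-values measure only the spread between times. Symbols, lengths and coordinates are from GENCODE M21 (GRCm38), matched by identifier for 52073 genes. The values of 1 member are not reported here, though it entered all counts and medians. Members and lists were chosen with earlier results of these data known. Values in every pool are given for the highest of each complex, the 4 highest and 4 lowest diet differences, the 3 lowest rhythm p-values per test, the 3 largest differences at ZT 21 and members near the limit of 1 FPKM, and means for other isoforms. Alternatives were another pseudocount (0.1), limit (5 FPKM or none) and scaling, and each time left out. Python 3.11.15 with pandas 2.3.3 and matplotlib 3.10.9 served for the rest.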

Additional observations from a re-analysis of the deposited data

Results flagged for a closer look

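Within each diet's 7 pools, a value was marked when its gap to the nearest other value was an unusually large part of the range by Dixon's criterion, which chance meets in about 1 in 20 groups. In chow the ZT 21 pool was marked as the highest for the members' median deviation, with a gap of 0.626 of the range, and for 37 members. Their gaps lay between 0.571 and 0.759 of the range. Of those named in the text, the gap was 0.651 for Ndufa2, 0.68 for Ndufa3, 0.6 for Ndufb2, 0.649 for Ndufb10, 0.693 for Ndufs6 and 0.617 for Sdhc. In complex IV it was 0.573 for Cox4i1, 0.672 for Cox6a1, 0.676 for Cox6b1, 0.591 for Cox7a2l and 0.59 for Ndufa4, and in complex V 0.669 for Atp5e and 0.659 for Atp5k. The same pool was marked as the lowest for Uqcrc2, with a gap of 0.648. The chow ZT 1 pool was marked as the lowest for Atp5g2, with a gap of 0.572. In EpSA, 1 member was marked, Ndufb10, lowest at ZT 21 with a gap of 0.603. The members share each pool, so these marks are not independent of each other. The share of all tested genes marked in the chow ZT 21 pool is not given here, so the 37 members have no background. That pool was the highest of 14 for 1803 of the 13344 tested genes and the lowest for 2929.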

How the results depend on the processing

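Under other settings the 4 highest and 4 lowest diet differences kept their direction and none was called, although sizes moved: Cox6a2 was at 0.73 with a pseudocount of 0.1, against 0.42 as reported, Cox8b at -0.29 without ZT 13, against -0.67, and without ZT 21 Ndufa2 was at -0.17, against -0.35, and Cox7a1 at -0.13, against -0.27. The members' medians, over the day and at each time, moved by less than their spread over times (SD 0.217), with 2 exceptions. Both were the median at ZT 21, which was -0.3 with quantile normalization and -0.252 when the genes outside the mitochondrial genome were set to the same sum, against -0.544 as reported. The SD includes ZT 21 and is larger than the median at any other time, so medians could change sign within it. After centring on the median of all tested genes, ZT 1 went from -0.013 to 0.036 and ZT 17 from 0.025 to -0.012. The median over the day went from -0.088 to -0.005 at the same sum outside the mitochondrial genome. The number of members called was 0 in each of the 4 tests under every setting run, including each time left out, and by the authors' deposited q-values for rhythm in EpSA and in chow. Over all genes, diet calls were 23 higher and 10 lower as reported, 53 and 17 with quantile normalization, 14 and 3 after centring on the median, 5 and 2 at the same sum outside the mitochondrial genome, 1 and 1 with every pool scaled to 1000000, 30 and 25 with a limit of 5 FPKM, and 0 with no limit; leaving out 1 time gave 0 to 6 higher and 0 to 5 lower. No paired analysis was possible because the deposited columns are means per diet and time and carry no replicate numbers. Depth limits low members most: Cox6a2 stands for about 10 and Ndufa4l2 for about 35 fragments per library, against 22850 for Atp5a1. With 1 mean per diet and time, a difference confined to 1 time cannot be tested.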

Other observations

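Entries that match the family names but are annotated as non-coding were not all silent. Ndufb1-ps, annotated as a long non-coding RNA from a shared promoter, was at 58.4 FPKM, and the processed pseudogenes Cox6c2 and Atp5k-ps2 were at 28.8 and 15.3 FPKM. The remaining 9 lay between 0.053 and 6.71 FPKM. Reads shared with the parent genes cannot be told apart from transcription of these copies in the deposited values.

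Immune cell markers summed to 181, 235, 180, 181, 210, 204 and 189 FPKM in EpSA kidneys from ZT 1 to ZT 25, against 796, 454, 424, 930, 177, 193 and 215 FPKM in chow kidneys. Only the chow pools from ZT 1 to ZT 13 had sums above those of all EpSA pools. The part of immune cells in the members' values was not tested.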
